A study of Chenopodium quinoa with 9 samples.

Results

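The 188 genes described here had no read in any root library of quinoa (Chenopodium quinoa, an Andean pseudocereal) and were present in both stem and leaf. They were chosen by their measured values, from 54238 genes in all. The rule asked for a count of 0 in each of the 3 root libraries and for a mean of at least 2 FPKM in the 3 stem and in the 3 leaf libraries. FPKM, the fragment count scaled by gene length and by library size, is a level that can be set side by side between genes of different length. The plants were yellow bitter quinoa grown outdoors in an experimental field, and no treatment is named. They were sown in March, and root, stem and leaf were collected in August. Each library is 1 organ of a pool of 10 plants, with 3 pools drawn from 30 plants, and the same pool gave its root, stem and leaf. A whole organ mixes many cell types, so fewer cells of a type and less RNA per cell cannot be told apart.

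Green shoots photosynthesise, exchange gas through stomata and are sealed by a waxy cuticle, and quinoa carries salt bladders on the epidermis of its young aerial parts. Roots in soil take up water and ions. Many genes for photosynthesis and other shoot functions are transcribed in leaf and green stem and little in root. Which functions the 188 genes serve is not stated here, because 0 of the 54238 identifiers were found in the gene table of 58882 RefSeq genes (assembly ASM168347v1). The genes are therefore described by identifier, level and length. Quinoa is an allotetraploid whose subgenomes hold near-identical gene copies, so a single gene's value is uncertain where copies shared reads.

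The root libraries held 16112021 to 18253046 counts. Stem libraries held 18719390 to 24846346 counts and leaf libraries 17554727 to 22035718. The library size behind the deposited FPKM was above the total count in root (1.10 to 1.21 times) and below it in leaf (0.773 to 0.857 times). On that scale root was not shallower than leaf. Stem replicate 1 stood apart from the other stem libraries. Over 36685 genes with enough reads to be tested, its log2(CPM + 1) values correlated with those of stem replicates 2 and 3 at r = 0.849 and 0.807, where the latter pair correlated at 0.928. It was also less like leaf, at r = 0.750 to 0.777, than stem replicates 2 and 3 were, which reached 0.861 to 0.892. These values run across genes, which are no replicates, and only describe the libraries. Without stem replicate 1 the rule would choose 187 genes.

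Absence from root was rare among genes of the shoot. Of 24584 genes with at least 2 FPKM in both stem and leaf, 188 (0.765%) had no root read, a further 163 had 1 to 3 root reads in all, and 22338 also reached a mean of 2 FPKM in root. Seen from root, 10730 genes had no read in its 3 libraries, of which 7662 had none in any organ. Among the remaining 3068 genes, 228 reached 2 FPKM in leaf but not in stem, 45 in stem but not in leaf, and 2607 in neither. The same rule turned to the other organs chose 97 genes that were silent in leaf and present in root and stem, and 2 that were silent in stem and present in root and leaf. Those 2 were AUR62009042, at 9.38 ± 1.58 FPKM in root and 2.36 ± 1.59 FPKM in leaf (SD, n = 3), and a gene outside the AUR62 series. Unlike the 188, the 97 and the 2 were not set against all genes present in the same organs, and depth differed between libraries. They therefore do not compare how often each organ is silent. All these numbers follow from the rule and were not tested.

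A root count of 0 bounds the level but does not show complete absence. A limit of 3 counts per library was chosen for a count of 0. It was set for each library and not for the 3 together. By this limit root held at most 0.144 CPM of each gene (counts scaled by TMM-adjusted library size, over the 3 libraries). Against this limit the leaf level was at least 100-fold higher for 114 of the 188 genes and at least 1000-fold higher for 28. In stem the same held for 54 and 12 genes. The weakest bounds were at least 5-fold for leaf and at least 4-fold for stem, so for the lowest genes a modest root level could have gone unseen at this depth. These limits cover counting error only. Asking for 0 in only 2 root libraries would choose 232, 238 or 245 genes, depending on the library left out.

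Genes lay close to the border of the rule on both sides. AUR62037807 lay just inside, at 0, 3.77 and 2.45 FPKM in stem, with a mean of 2.07. AUR62034654 lay just outside, at 1.41, 3.10 and 1.36 FPKM in stem, with a mean of 1.95. On the root side, AUR62042566 missed the rule by 1 read in root replicate 2 and reached 5992, 2040 and 9174 FPKM in leaf. AUR62036731, with 3 root reads, and AUR62013862, with 2, reached mean leaf levels of 1230 and 1075 FPKM. These abundant leaf genes were kept out by 1 to 3 reads.

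**Figure D1:**
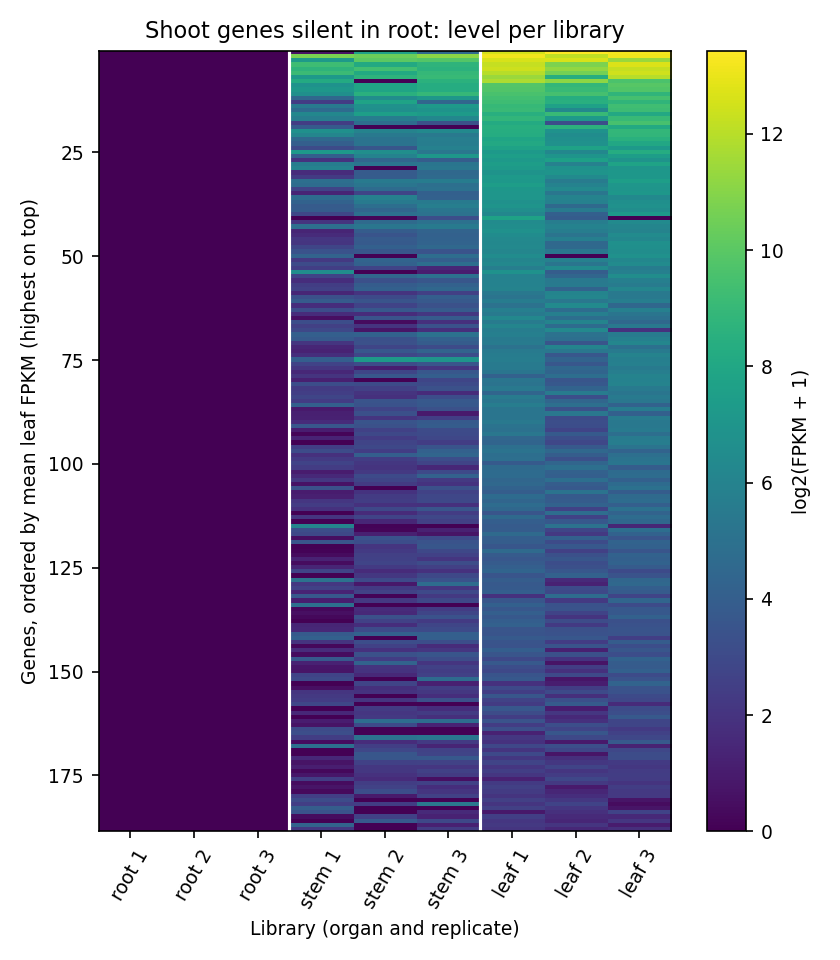
Level of the 188 genes, as log2(FPKM + 1), in each of the 9 libraries; each row is a gene, ordered by mean leaf FPKM, and each column a library. Root is 0 by the rule, leaf is brighter than stem for most genes, and dark cells in stem mark genes at or near 0 in single stem libraries, 32 genes being at 0 in at least 1 of them.

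The genes covered a wide range of levels and were more abundant in leaf than in stem. The mean leaf level ran from 2.52 to 8972 FPKM with a median of 25.5, and the mean stem level from 2.03 to 1758 FPKM with a median of 6.42. Over all 24584 genes that met the same minimum in both organs, the medians were 10.7 FPKM in leaf and 10.4 FPKM in stem. Compared with those genes, the 188 were thus placed high in leaf and low in stem. At least 100 FPKM was reached by 35 genes in leaf and by 12 in stem. Together the 188 genes took 3.19%, 2.07% and 3.41% of all counts in leaf replicates 1 to 3, and 0.396%, 0.704% and 0.909% in stem replicates 1 to 3. Every leaf library lay above every stem library in this share.

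A few genes carried most of these reads. The 8 genes with the highest leaf means held 65.4% to 67.8% of the reads of all 188 in the leaf libraries and 46.5% to 60.4% in the stem libraries. All 8 were among the 100 genes of highest mean leaf FPKM in the whole table, while 1 of the 188, AUR62001880, was among the top 100 in stem.

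AUR62013721 had the highest leaf level, at 6158, 11052 and 9705 FPKM, with 0.525, 205 and 24.0 FPKM in stem. Its leaf mean of 8972 ± 2528 FPKM (SD, n = 3) was 117 times its stem mean of 76.5 ± 112 FPKM, the largest such ratio among the 188 genes. Leaf and stem did not overlap, stem varied widely, and the difference did not pass the edgeR test (log2 difference 6.85 ± 1.86 SE, edgeR adjusted p = 0.0627). With all libraries it was called by DESeq2 (adjusted p = 0.00104) and by limma on log2(FPKM + 1) (adjusted p = 0.00649). It passed the edgeR test without stem replicate 1 (adjusted p = 0.0231) and without stem replicate 2 (adjusted p = 0.0450).

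AUR62001880 had the smallest spread in stem of these 8 genes relative to its mean, at 1674, 1373 and 2227 FPKM, against 9130, 4543 and 8886 FPKM in leaf. Leaf exceeded stem 4.28-fold without overlap and passed the test (log2 difference 2.09 ± 0.47 SE, adjusted p = 0.0360). The call was lost with the pool as a block (adjusted p = 0.0807) and with stem and leaf alone (adjusted p = 0.0727). It was also lost without leaf replicate 1 or 3, stem replicate 1 or 2, or root replicate 1 or 2 (adjusted p from 0.0530 to 0.115). Against the root limit its leaf level was at least 41054-fold higher, the highest bound of the 188.

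AUR62027587 and AUR62030254 ran in parallel. The former stood at 607, 286 and 429 FPKM in stem and at 4825, 1756 and 6722 FPKM in leaf. The latter stood at 561, 281 and 492 FPKM in stem and at 4134, 1559 and 5611 FPKM in leaf. In both, replicate 2 was the lowest library of either organ, and leaf lay above stem without overlap. Leaf exceeded stem 10.1-fold for AUR62027587 (log2 difference 3.33 ± 0.63 SE, adjusted p = 0.0228) and 8.47-fold for AUR62030254 (3.08 ± 0.60 SE, adjusted p = 0.0246). Both calls held with the pool as a block and were lost without leaf replicate 1, leaf replicate 3 or stem replicate 2 (adjusted p from 0.0659 to 0.0786).

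The gene outside the AUR62 series with the highest leaf level, 587 bp long, showed the same order of organs. It stood at 425, 666 and 401 FPKM in stem and at 5511, 2481 and 4799 FPKM in leaf. Leaf was 8.57 times stem (log2 difference 3.09 ± 0.47 SE, adjusted p = 0.0121). With the pool as a block its adjusted p was 0.0568.

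The other 3 of the top 8 did not pass the edgeR test. AUR62035864 stood at 161, 1042 and 920 FPKM in stem and at 6231, 6191 and 2691 FPKM in leaf (adjusted p = 0.0667), without overlap. Its low stem value was in replicate 1, without which the adjusted p was 0.0343. DESeq2 (adjusted p = 0.000601) and limma on log2(FPKM + 1) (adjusted p = 0.0201) called it with all libraries. AUR62018154 stood at 146, 403 and 531 FPKM in stem and at 2733, 326 and 4013 FPKM in leaf (adjusted p = 0.124). Here leaf replicate 2 fell within the stem range, and without that library the adjusted p was 0.0394. With all libraries DESeq2 called it (adjusted p = 0.00996) and limma on log2(FPKM + 1) did not (adjusted p = 0.136). AUR62002997, only 255 bp long, stood at 295, 0 and 381 FPKM in stem and at 3575, 2252 and 801 FPKM in leaf (adjusted p = 0.284). Its stem replicate 2 held no read at all although the other stem libraries were high. Neither DESeq2 (adjusted p = 0.381) nor limma on log2(FPKM + 1) (adjusted p = 0.126) called it.

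**Figure D2:**
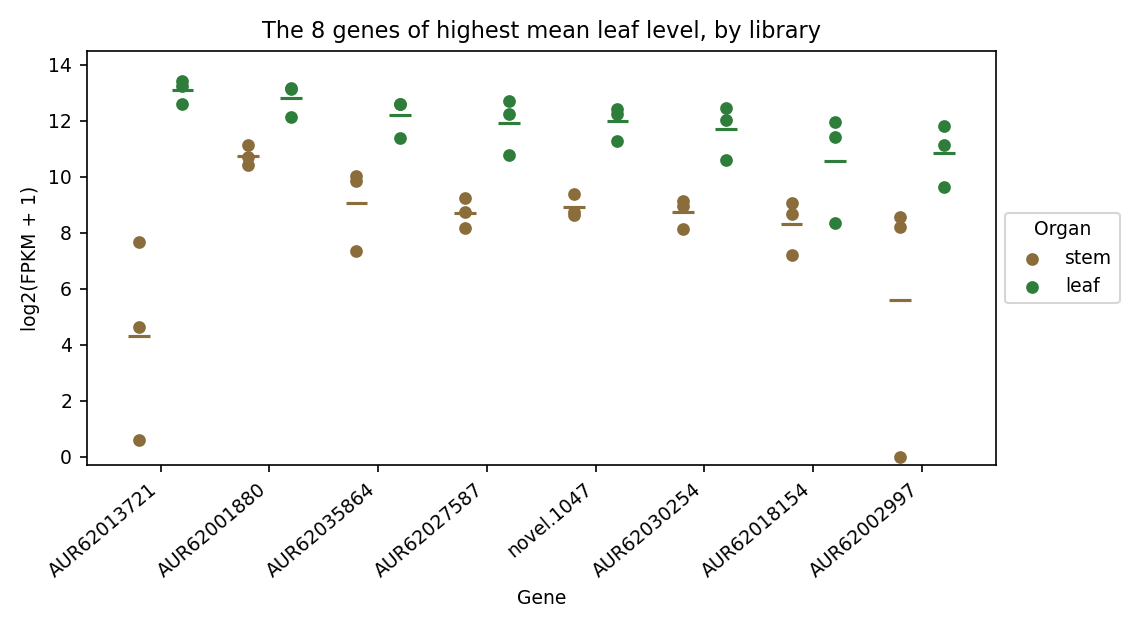
Level, as log2(FPKM + 1), of the 8 genes of highest mean leaf level; each point is a library (3 stem, 3 leaf) and each short line the mean of the 3 plotted values. Leaf lies above stem without overlap in all of them except AUR62018154, the gene between AUR62027587 and AUR62030254 is the 587 bp gene outside the AUR62 series, and the spread of stem is widest for AUR62013721 (0.525 to 205 FPKM) and AUR62002997 (0 to 381 FPKM).

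The comparison of leaf with stem was not fixed by the rule, which set the same minimum in both organs and asked for no difference between them. It was not fully independent of the rule, which used both levels: 228 root-silent genes missed it on stem alone and 45 on leaf alone. The main fit also took its spread from all 9 libraries, with root at 0 for these genes. With stem and leaf alone, 24 of the 188 were called higher in leaf (771 of all 34003 genes tested). Of the 188 genes, 170 had the higher mean FPKM in leaf and 18 in stem. Leaf was at least 2-fold higher for 143 genes, stem for 7, and 38 lay within 2-fold. The median leaf to stem ratio was 3.63, with quartiles at 2.07 and 5.98, where the median over the 24584 genes with the same minimum was 1.01. Over the same 188 genes the median ratio stayed between 3.46 and 4.62 when any 1 stem library was left out. On the scale of the fitted model the median log2 difference was 1.85, against -0.07 over all genes tested.

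All 188 genes had enough reads to be tested. In 47 of them (25%) leaf passed the test as higher than stem, and in 0 as lower (edgeR quasi-likelihood test, adjusted p below 0.05 over all 36685 genes). Over all genes tested, 6.42% were higher in leaf and 5.75% lower. Unlike the 188, the genes tested include some below 2 FPKM in stem or leaf. Here and below, shares called were not counted over the 24584 genes with the same minimum. At an unadjusted p below 0.05, 98 of the 188 were higher in leaf and 2 lower, against 13.5% and 14.2% of all genes tested. DESeq2 called 92 higher and 2 lower, with 11.5% of all its genes higher and 10.1% lower. For limma on log2(FPKM + 1), 83 were higher and 1 lower, with 8.16% of all genes higher and 4.7% lower. The differences of the 47 genes ran from 1.48 to 4.04 on the log2 scale, and 8 of them were outside the AUR62 series. The fits of this paragraph did not use the pairing of organs by pool. The fit with the pool as a block, given below, called 23 of the 188 higher in leaf (3.57% of all genes tested).

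Leaf libraries lay above stem libraries without overlap for 103 of the 188 genes, namely all 47 called genes and 56 others, where 15.8% of all genes tested did so. For 1 gene leaf lay below stem without overlap, against 13.5% of all genes tested. Leaf exceeded stem in all 3 pools for 126 genes and in none for 2, against 22.2% and 22.4% of all genes tested. Because root, stem and leaf of a pool belong together, the fit was repeated with the pool as a block. It called 23 of the 188 genes higher in leaf and 0 lower, with 3.57% of all genes higher, and 19 of the 23 were among the 47.

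The number called changed with single libraries. It fell to 9 without leaf replicate 1 (1.91% of all genes tested higher) and to 9 without leaf replicate 3 (2.09%). Without stem replicate 2 it was 16 (2.83%), and without root replicate 1 or 2 it was 28 in both cases (3.85% and 3.32% of all genes). Without stem replicate 1 it rose to 60 (6.99%), with 3 genes lower in leaf (6.82% of all genes). Between 165 and 179 of the genes tested had a fitted value above 0 in each of the alternatives run. This count has no threshold, so it cannot be set against the number of calls. It also does not show that the same genes kept their direction.

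**Figure D3:**
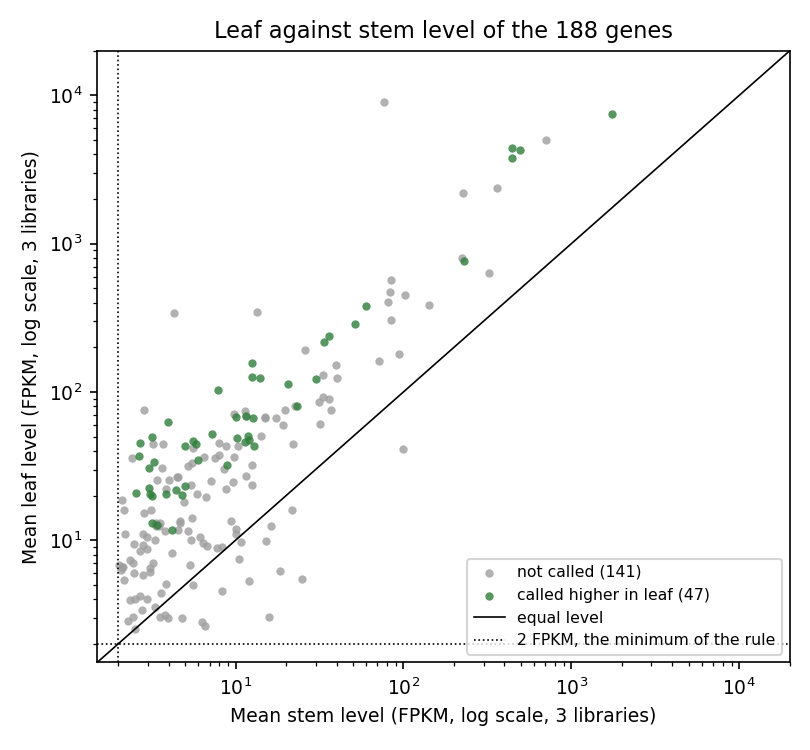
Mean leaf against mean stem level (FPKM, both axes on a log scale, 3 libraries each) of the 188 genes. Green points are the 47 genes called higher in leaf by the fit without the pool as a block, and grey points the 141 not called. Dotted lines mark the minimum of 2 FPKM, and 170 points lie above the line of equal level.

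Of the 5 genes with the largest called differences, all but AUR62014194 were of moderate level and close to the minimum in stem. AUR62014194 had means of 7.84 FPKM in stem and 103 FPKM in leaf. AUR62022185 stood at 2.31, 2.29 and 3.53 FPKM in stem and at 45.6, 53.7 and 37.0 FPKM in leaf. Leaf exceeded stem 16.8-fold (log2 difference 4.04 ± 0.30 SE, adjusted p = 0.00242). AUR62031890 stood at 1.71, 3.08 and 4.75 FPKM in stem and at 40.1, 65.4 and 42.6 FPKM in leaf, a 15.5-fold excess (3.92 ± 0.45 SE, adjusted p = 0.00582). Both genes are 570 bp long, and their leaf values were highest in replicate 2, the library in which most of the 188 genes were lowest.

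A gene outside the AUR62 series, 1194 bp long, behaved alike, with 4.60, 5.46 and 1.81 FPKM in stem and 52.8, 86.5 and 48.7 FPKM in leaf (log2 difference 3.97 ± 0.49 SE, adjusted p = 0.00705). AUR62010342 stood at 3.55, 1.17 and 3.26 FPKM in stem and at 43.4, 21.7 and 45.9 FPKM in leaf (3.78 ± 0.57 SE, adjusted p = 0.0121). Its call was narrowly lost without leaf replicate 1 or 3 (adjusted p = 0.0528 and 0.0505). AUR62014194 stood at 1.58, 5.88 and 16.1 FPKM in stem and at 134, 38.1 and 137 FPKM in leaf (3.69 ± 0.91 SE, adjusted p = 0.0476). This last call was the least secure of the 5: 11 of the 19 alternatives ended it, the block among them (adjusted p = 0.0779).

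Of the 47 calls, 7 held in all 19 alternatives, a count made after the values were seen. They were AUR62022185, AUR62031890, the 1194 bp gene outside the AUR62 series, AUR62009243, AUR62013365, AUR62025022 and AUR62030805. AUR62013365 had the smallest standard error of the 7, at 13.6, 10.2 and 12.4 FPKM in stem and 48.6, 39.8 and 53.0 FPKM in leaf (log2 difference 1.95 ± 0.20 SE, adjusted p = 0.00477). AUR62030805 was nearly level over stem, at 9.62, 10.9 and 9.71 FPKM, with 70.6, 38.5 and 93.3 FPKM in leaf. AUR62025022 was at 3.26 ± 1.26 FPKM in stem and 33.9 ± 13.5 FPKM in leaf, and AUR62009243 at 3.18 ± 0.855 and 19.9 ± 5.57 FPKM (SD, n = 3).

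**Figure D4:**
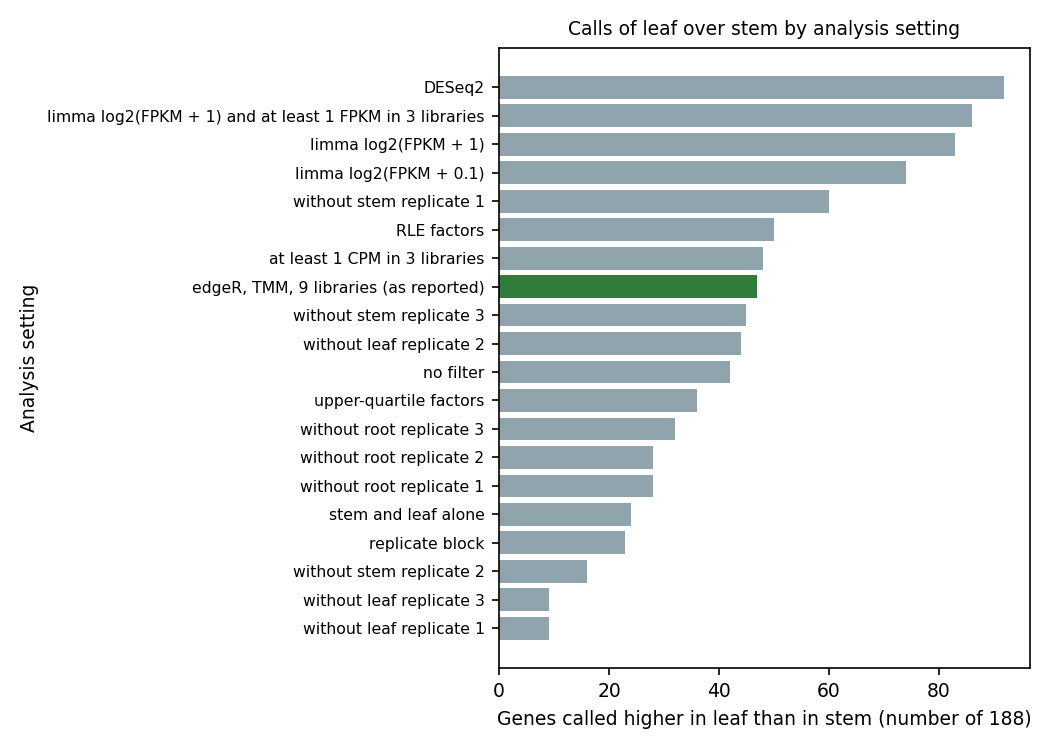
Number of the 188 genes called higher in leaf than in stem (horizontal axis) under each analysis setting (vertical axis); the green bar is the analysis as reported, with 47 genes, and grey bars are the alternatives. The number ran from 9 without leaf replicate 1 or 3 to 92 with DESeq2.

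Some of the genes had similar mean levels in both organs or a higher mean in stem. AUR62030649, AUR62012660 and AUR62025844 had the smallest fitted differences. AUR62012660 stood at 0.382, 4.42 and 5.13 FPKM in stem and at 3.87, 3.69 and 3.11 FPKM in leaf (log2 difference 0.08 ± 0.79 SE, adjusted p = 0.966). AUR62030649 stood at 3.55, 0.0296 and 3.96 FPKM in stem and at 3.18, 1.82 and 2.55 FPKM in leaf. In these genes leaf was even between replicates, whereas 1 stem library lay far below the others. AUR62025844 overlapped widely, at 8.25 ± 4.18 FPKM in stem and 8.97 ± 7.57 FPKM in leaf. With standard errors near 1 on the log2 scale, such values do not show equal levels.

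Among the 18 genes with a higher stem mean, 0 passed the edgeR test. AUR62002109 stood at 4.52, 32.0 and 37.8 FPKM in stem and at 3.60, 6.61 and 6.18 FPKM in leaf (log2 difference -2.20 ± 0.74 SE, adjusted p = 0.111). Stem was higher in each pool, and stem replicate 1, where the gene was lowest, lay within the leaf range. Without that library the difference was -2.69 (adjusted p = 0.00542), and DESeq2 called it with all libraries (adjusted p = 0.0264). AUR62007236 was the 1 gene with stem above leaf without overlap, at 12.9, 17.1 and 15.6 FPKM against 10.1, 9.62 and 9.96 FPKM. The difference was small, at -0.63 ± 0.18 SE on the log2 scale (adjusted p = 0.0691), and passed with DESeq2 (adjusted p = 0.0213), with limma on log2(FPKM + 1) (0.0462) and without stem replicate 1 (0.0267). Both genes, as well as AUR62003150 (adjusted p = 0.0486), were the ones called lower in leaf without stem replicate 1, and all 3 were picked here after their values were seen.

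Replicates of an organ differed more for these genes than for most. The median coefficient of variation between the 3 libraries (SD over mean FPKM) was 68.3% in stem and 45.7% in leaf, where the 24584 genes with the same minimum had medians of 30.0% and 18.5%. Differences between libraries were shared by many of the genes. Stem replicate 1 was the lowest stem library for 124 of the 188 genes (66.0%), against 44.2% of all genes tested. Leaf replicate 2 was the lowest leaf library for 131 (69.7%), against 38.6%. Both held at once for 97 genes (51.6%), against 17.0% of all genes tested. The 188 genes share these libraries, so their common drop is not 188 separate observations.

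The size of the drop was considerable. Relative to the mean of the other stem libraries, stem replicate 1 held a median of 0.336 times the level of these genes, where the median over all genes tested was 0.940. In leaf replicate 2 the corresponding medians were 0.525 and 0.968. Stem replicate 1 was also the library that stood apart over all genes. Without it the median leaf to stem ratio was 3.46 in place of 3.63, and 168 in place of 170 genes had the higher mean in leaf. AUR62021944 and AUR62012710 show the common pattern at a high level. AUR62021944 stood at 116, 232 and 319 FPKM in stem and at 926, 481 and 999 FPKM in leaf. AUR62012710 stood at 139, 229 and 320 FPKM in stem and at 868, 535 and 892 FPKM in leaf. Both are 1095 bp long, and in each library the latter was 0.893 to 1.20 times the former.

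**Figure D5:**
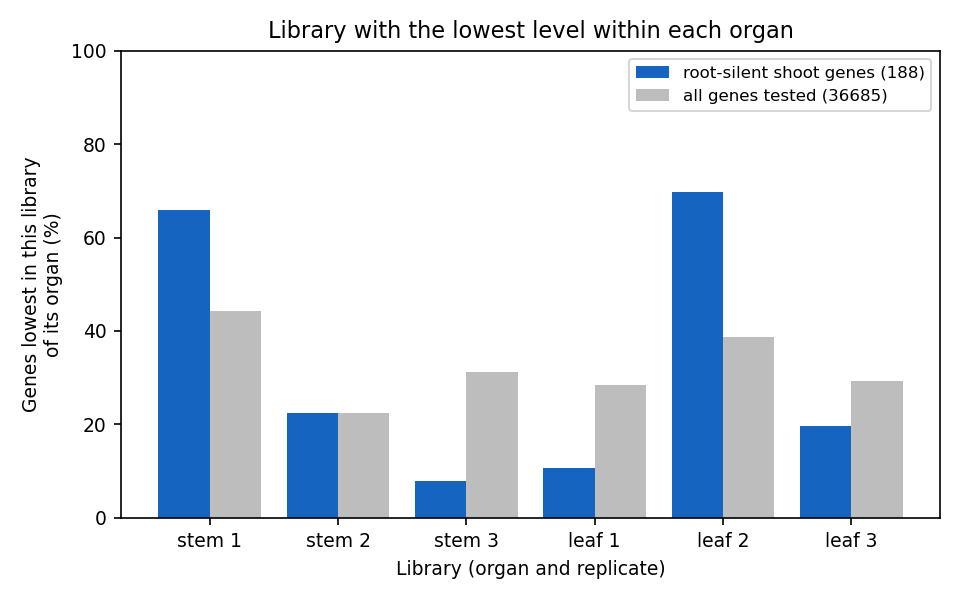
Share of genes, in percent, whose lowest level within an organ (TMM-scaled CPM) was in the library named on the horizontal axis; blue bars are the 188 root-silent shoot genes and grey bars all 36685 genes tested, and genes tied for the lowest are counted for no library. Stem replicate 1 (66.0% against 44.2%) and leaf replicate 2 (69.7% against 38.6%) stand out.

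Presence in stem was not uniform. A count in all 6 shoot libraries was recorded for 156 genes, and at least 2 FPKM in every one of them for 89. In stem, 32 genes had no read in at least 1 library, 13 of them in replicate 1, 18 in replicate 2 and 8 in replicate 3, while in leaf 2 genes did so. For 21 genes a single stem library held over 80% of the summed stem FPKM, and in leaf this held for 2. Of the 21, 0 were among the 47 genes called by edgeR.

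Of these 21 genes, 13 drew their stem level from replicate 1, 4 from replicate 2 and 4 from replicate 3. Stem replicate 1 was thus low for most of the 188 genes and high for this small number. Identifiers outside the AUR62 series were carried by 9 of the 13, against 28 of all 188. Reads in stem were confined to replicate 1 for 7 of the 13. Among them, AUR62033614 stood at 14.4, 0 and 0 FPKM in stem and at 4.92, 3.36 and 0.686 FPKM in leaf. AUR62033609 stood at 7.45, 0 and 0 FPKM in stem and at 8.31, 5.81 and 3.80 FPKM in leaf. A 623 bp gene outside the AUR62 series stood at 12.9, 0 and 0 FPKM in stem against 339, 400 and 284 FPKM in leaf. Its mean leaf level was 79.1 times its stem mean, and its adjusted p was 0.0860.

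Dependence on other libraries was seen as well. AUR62006381 stood at 4.32, 224 and 20.4 FPKM in stem, with most of its stem level in replicate 2, and at 614, 356 and 448 FPKM in leaf. AUR62039520 depended on single libraries in both organs, with 0, 0.122 and 8.37 FPKM in stem and 211, 14.1 and 0 FPKM in leaf. Its leaf to stem ratio of 26.5 therefore compares single libraries.

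The 188 genes were shorter than others of the shoot. Their median length, as implied by the ratio of count to FPKM, was 911.5 bp with quartiles at 552 and 1352 bp, against a median of 1445 bp and quartiles at 941 and 2182 bp for the 24584 genes with the same minimum. Shorter genes have fewer reads at a given FPKM and so reach a count of 0 more easily, and the part of length in the choice of these genes was not tested. The longest were AUR62021994 (3405 bp), AUR62009345 (3327 bp) and AUR62012660 (3289 bp). AUR62009345 stood at 1.43, 4.97 and 3.17 FPKM in stem and at 11.6, 11.3 and 16.1 FPKM in leaf (adjusted p = 0.0390; 0.0610 with the block). AUR62021994 was at 2.96 ± 2.48 FPKM in stem and 4.05 ± 0.698 FPKM in leaf (SD, n = 3).

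The shortest were AUR62004453 (237 bp), AUR62002997 (255 bp, described above) and AUR62027592 (258 bp). AUR62004453 stood at 8.68, 6.98 and 15.0 FPKM in stem and at 34.8, 70.5 and 42.1 FPKM in leaf (adjusted p = 0.0253; 0.0725 with the block). AUR62027592 stood at 7.53, 11.1 and 59.5 FPKM in stem and at 216, 211 and 151 FPKM in leaf (adjusted p = 0.0660). Its high stem value was in replicate 3, without which the adjusted p was 0.00421. DESeq2 (adjusted p = 0.00232) and limma on log2(FPKM + 1) (adjusted p = 0.0106) called it with all libraries.

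Genes outside the AUR62 series made up 28 of the 188 (14.9%), against 10.4% of the 24584 genes with the same minimum. Their median mean leaf level was 14.7 FPKM, and that of the 160 AUR62 genes 30.5 FPKM. A shoot library with no read was found for 9 of the 28 and for 23 of the 160.

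Several pairs of genes were alike in both length and profile. Pairs were listed, after the data were seen, where lengths differed by at most 1% and log2(FPKM + 1) over the 6 shoot libraries correlated at 0.98 or more. The 9 pairs included AUR62027587 with AUR62030254 (807 and 804 bp, r = 0.998), AUR62021944 with AUR62012710 (1095 bp each, r = 0.996) and AUR62031890 with AUR62022185 (570 bp each, r = 0.991). AUR62019700 with AUR62037878 (1764 and 1770 bp, r = 0.994) and AUR62025294 with AUR62008547 (1170 and 1175 bp, r = 0.993) were also alike in profile, with less even levels. In the pair of AUR62027587 and AUR62030254 the ratio of levels stayed between 0.835 and 1.15 over the 6 libraries, and in that of AUR62031890 and AUR62022185 between 0.743 and 1.35. AUR62001880 has the same length as AUR62030254 (804 bp), with r = 0.984 but unequal levels. These correlations rest on 6 libraries of the same 2 organs, and reads shared between copies would raise them, which was not tested. Among the AUR62 genes, 4 pairs had consecutive identifiers, such as AUR62013364 and AUR62013365, at 11.3 and 12.1 FPKM in stem and 45.8 and 47.1 FPKM in leaf.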

How the data were processed

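RNA of root, stem and leaf (3 libraries each) was analysed from 2 tables. One table, as the authors deposited it, holds unscaled counts of reads and the other, per the file headers, holds FPKM as deposited. The submitters' processing notes list Bowtie2 2.0.6 and TopHat2 2.0.12. The counter, build, strand setting and handling of multi-mapped reads were not given in the sources used here. The library size behind the deposited FPKM was 0.773 to 1.21 times the total count. Gene lengths were solved from count over FPKM and were whole numbers within 0.1 bp for 100% of 46576 genes.

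The 188 genes and all lists were chosen with earlier results of these data known. Leaf was compared with stem using edgeR 4.0.16 in R 4.3.3 (filterByExpr, TMM, robust quasi-likelihood F-test, tissue as factor, all 9 libraries, Benjamini-Hochberg over 36685 genes). Standard errors were the fold change over the square root of F. Contrasts with root were not tested, since the rule used them. Named genes were the highest 8 in leaf and 5 in stem, the 5 largest called changes per direction, the 3 smallest, 3 on each side of the threshold, 3 with 1 to 3 root reads, and the 3 longest and 3 shortest; others were added after their values were seen. DESeq2 1.42.0, limma 3.58.1, other scalings and filters, the block and leave-one-out fits were alternatives. The labels say that the organs of a replicate came from the same pool, which makes the number a pairing; deviations of the 9 same-numbered pairs correlated at -0.240 to 0.118, with 3 above 0.1. Each replicate is a separate pool of plants, and the tests rest on how far pools differ. Depth limits low genes: a count of 0 was taken to allow 3 reads.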

Additional observations from a re-analysis of the deposited data

How the results depend on the processing

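Under the 19 alternatives no named gene called in the main analysis changed direction: 168 of 209 combinations of the 11 called genes and an alternative kept the call and 41 lost it, and 19 of 228 combinations of the 12 others gained one. The number of the 188 genes higher in leaf (47) was 92 with DESeq2, 74 with limma on log2(FPKM + 0.1), 83 on log2(FPKM + 1) and 86 with at least 1 FPKM in 3 libraries, 24 with stem and leaf alone, 23 with the replicate block, and 9 to 60 when a library was left out. The number lower (0) was 2 with DESeq2, 1 with limma on log2(FPKM + 1) under either filter, and 0 to 3 when a library was left out. Over all genes, 2356 higher and 2108 lower became 4167 and 3671 with DESeq2. Of 36685 genes, limma gave 2721 and 2036 on log2(FPKM + 0.1), and 2994 and 1725 on log2(FPKM + 1). With at least 1 FPKM in 3 libraries it gave 3014 and 1715 of 33592 genes. The replicate block gave 1310 and 1169 of 36685, and stem and leaf alone 771 and 800 of 34003. Leaving out a library gave 725 to 2642 higher and 702 to 2580 lower. The block changed the call of 5 of the 11 called genes named by the rule. Upper-quartile factors moved the median log2 difference of all genes from -0.07 to -0.17 and that of the 188 from 1.85 to 1.74. The rule chose 351 genes with up to 3 root reads, 107 at 5 FPKM, 89 with 2 FPKM in every shoot library and 178 to 245 when a library was left out. Genes silent in leaf numbered 151 at 1 FPKM, 52 at 5 FPKM and 196 with up to 3 reads, and those silent in stem 7, 0 and 5. Leaving out a library leaves fewer samples to fit. The cause of the other changes was not tested.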
